A study of Mus musculus with 6 samples.

Results

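The axon guidance ligands and receptors described here are 67 of the 52535 gene rows in a comparison of mouse embryonic stem cells with and without Npm1 knockdown. They were chosen by symbol alone, as the semaphorins, plexins, neuropilins, Eph receptors, ephrins, Robo and Slit genes, netrins and Unc5 receptors of the table. The cells were E14, a mouse embryonic stem cell line, described as wild type and grown in N2B27 medium with LIF and 2 kinase inhibitors (2i). The 3 control samples received a control siRNA and the 3 knockdown samples an siRNA against Npm1, which encodes the nucleolar protein nucleophosmin. All 6 samples went through the same lipid transfection and were collected 3 days later, and poly(A)-selected RNA was sequenced. A knockdown by transient siRNA leaves some of the target: in the authors' deposited table Npm1 stood at 45.3% of control (log2 ratio -1.14). That sign is also what fixes the direction of every ratio given here, since the table does not name its numerator.

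Axon guidance molecules were named for steering growing nerve fibres, and most act widely outside the nervous system in cell adhesion, migration and boundary formation. Semaphorins bind plexins, with neuropilins as co-receptors for the secreted class. Ephrins are membrane-bound ligands of the Eph receptor tyrosine kinases, and both partners signal. Secreted Slits bind Robo receptors, and secreted netrins bind Dcc, neogenin and the Unc5 receptors.

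The deposited table holds 1 row per gene for all 6 libraries together. The whole reads of each library were nevertheless recovered for all 66 members with any reads, because the deposited mean is a sum of whole reads weighted by known steps. They are given as normalized counts, reads divided by the library's scaling factor, and the libraries of each group are called A, B and C, which cannot be tied to the replicate numbers. Of the 67 members, 45 had a mean normalized count of at least 10 and were tested, 21 had reads below that level and 1, Epha3, had none. The defining pluripotency genes of the cell type were abundant: all 12 of that list were tested, and none was called in either direction at a Benjamini-Hochberg adjusted p under 0.05 on the authors' deposited p-values, with 1 at an unadjusted p under 0.05.

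Of the 45 tested members, 5 rose and 2 fell after Npm1 siRNA, and 38 did not pass. Over all 14284 tested genes 4.30% were called, 2.23% as higher and 2.07% as lower, against 15.6% of the members. The plexin receptor Plxnb2, the semaphorin Sema6a, the ephrin Efnb2, the Slit ligand Slit2 and the Eph receptor Epha2 rose. The semaphorin Sema4d and the neuropilin Nrp2 fell. The median log2 ratio of the tested members was 0.20, against 0.0019 over all tested genes, and 32 of the 45 ratios were positive (71.1%, against 50.4% of all tested genes). These counts describe a list whose interest was known from earlier results of the same data, and the difference from all genes was not tested. Abundance differs too: the median of the mean normalized counts was 156 in the tested members and 433 in all tested genes. Among genes with a mean of at least 1000, 7.67% of all were called, and 3 of 9 members were. Subtracting how ratios varied with length and GC of the transcript lowered the ratios of all members called higher. That of Plxnb2 went from a log2 of 0.52 to 0.40. Calls were then 4 members higher and 3 lower, against 215 and 277 over all genes matched to the annotation. The median ratio and the share of positive ratios were not recomputed.

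In most families 1 or a few members were abundant, and every family but the ephrins had members with a mean under 10. Levels between genes are given per kilobase of the longest transcript, over all 6 libraries. Epha2 stood highest at 784 normalized counts per kb, followed by Epha4 at 656, Plxnb2 at 646 and Sema4b at 566. Ephb4 at 419 and Ntn1 at 327 followed. The first 3 lie close together, and each level rests on the same 6 libraries, so their order was not tested. Single genes made up nearly all of the smaller families: Robo1 was 99.8% of the summed Robo level per kb, Unc5b 99.8% of Unc5, Nrp2 99.5% of the neuropilins, Ntn1 98.5% of the netrins and Slit2 89.4% of the Slits. Among plexins, Plxnb2 made up 64.1% and Plxna1 27.6%. Among semaphorins, Sema4b made up 46.3%, ahead of Sema4d at 12.6% and Sema5b at 12.4%. The ephrin level was spread more evenly, led by Efna3 at 34.9%, then Efna4, and Efna2 at 16.5%.

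**Figure D1:**
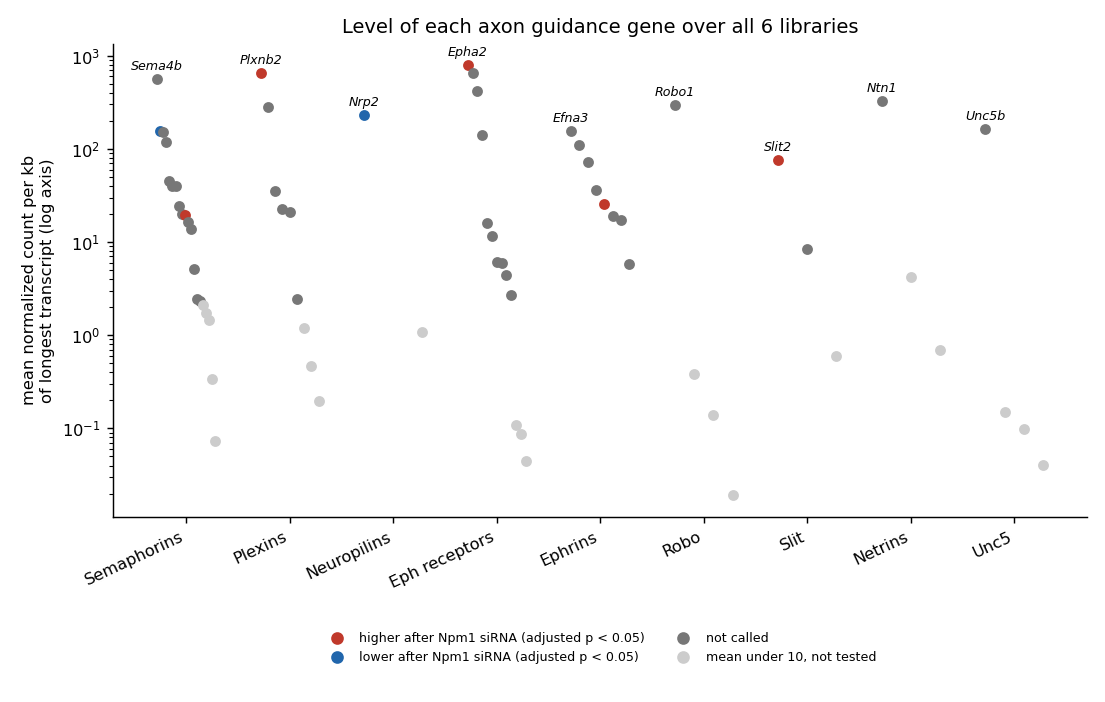
Level of each of the 66 members with reads, as mean normalized count per kb of the longest transcript over all 6 libraries (log axis), by family. Points are genes, ordered within a family by level; red rose, blue fell, dark grey was not called and light grey had a mean under 10. Nrp2, Robo1, Ntn1 and Unc5b stand alone at the top of their families.

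The gene starts of high and nearly silent members are shown because a dense run of CG dinucleotides occurs at some of both. CG dinucleotides are the letters that DNA methylation acts on in mammals. Of the 67 members, 58 matched RefSeq's promoter table (GRCm38.p6), and 44 had a start within 100 bases of the GENCODE start. CG reads the same on both strands. In the 250 bases before the start its median count was 17 in 31 tested members (range 2 to 32). In 13 members with a mean under 10 the median was 14 (range 2 to 46). Over all 32851 promoters of the table, which include many noncoding genes, the median was 6, and 92.1% held at least 1 CG. The stretches below are the 250 bases before the start of Plxnb2 (which rose), Nrp2 (which fell) and Epha8 (3 reads in all 6 libraries). They lie at chr15:89180789-89181038 on the minus strand, chr1:62703067-62703316 on the plus strand and chr4:136956817-136957066 on the minus strand. Capitals mark CG, found 20, 32 and 46 times. They end at RefSeq's start, which for Nrp2 lies inside the GENCODE gene given here, so the last 32 bases of that stretch are in the gene by GENCODE.
Plxnb2: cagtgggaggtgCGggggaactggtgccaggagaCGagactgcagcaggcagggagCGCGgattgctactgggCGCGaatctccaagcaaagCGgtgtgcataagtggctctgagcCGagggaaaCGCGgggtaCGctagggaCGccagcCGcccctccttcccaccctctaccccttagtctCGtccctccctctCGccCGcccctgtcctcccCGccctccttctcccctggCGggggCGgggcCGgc
Nrp2: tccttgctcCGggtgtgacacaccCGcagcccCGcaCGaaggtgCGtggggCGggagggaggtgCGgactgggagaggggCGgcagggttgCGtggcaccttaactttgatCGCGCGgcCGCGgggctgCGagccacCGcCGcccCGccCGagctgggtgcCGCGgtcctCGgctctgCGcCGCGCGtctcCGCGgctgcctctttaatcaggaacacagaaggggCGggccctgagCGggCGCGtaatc
Epha8: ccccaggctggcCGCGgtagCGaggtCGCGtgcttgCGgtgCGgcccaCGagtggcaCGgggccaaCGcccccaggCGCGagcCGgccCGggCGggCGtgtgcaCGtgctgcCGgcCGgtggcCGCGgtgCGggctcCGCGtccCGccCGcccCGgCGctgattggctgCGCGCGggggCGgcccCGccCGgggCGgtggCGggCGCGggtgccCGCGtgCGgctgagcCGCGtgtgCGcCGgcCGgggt
Epha8, an Eph receptor, had the most CG of these 3 and the fewest reads, while Plxnb2 had the fewest CG and the most reads. These 3 were picked after their values were seen, and the medians above ran the other way, higher in the tested members.

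Semaphorins are the largest family here, with 20 members, of which 15 were tested. Sema6a, a transmembrane semaphorin that binds A-type plexins, had normalized counts of 63.5, 85.0 and 116 in control libraries A, B and C (88.1 ± 26.4, SD, n = 3). After Npm1 siRNA the counts were 144, 232 and 155 (177 ± 48.0, SD, n = 3), and the groups did not overlap. The ratio in the authors' deposited table was a log2 of 1.01, with a 95% interval of 0.44 to 1.58 and a Benjamini-Hochberg adjusted p of 0.0198, a 2.01-fold rise. It was the highest ratio among the 45 tested members. In bulk RNA, more cells that carry a transcript and more of it per cell cannot be told apart. The call was lost without Npm1 siRNA library B (log2 0.77, adjusted p = 0.189), control library A (0.82, adjusted p = 0.144) or control library B (0.99, adjusted p = 0.0582), with the dispersion of the authors' model held. Sema6a (gene ENSMUSG00000019647.16) lies on chromosome 18, from 47235598 to 47368870 (GRCm38, GENCODE M21).

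Sema4d, a transmembrane semaphorin that binds plexin-B1, fell. Its normalized counts were 827, 749 and 805 in the control libraries (794 ± 40.2, SD, n = 3) and 529, 644 and 574 after Npm1 siRNA (583 ± 57.8, SD, n = 3). Every knockdown library lay below every control library. The level was 73.4% of control by the authors' deposited table (log2 ratio -0.45 with a 95% interval -0.68 to -0.21), with an adjusted p of 0.0103 by Benjamini-Hochberg. It kept the call in 5 of the 6 fits that left out a library, the exception being Npm1 siRNA library A (log2 -0.38, adjusted p = 0.0827). Sema4d is on chromosome 13 from 51685529 to 51793747 (ENSMUSG00000021451.16).

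The other 13 tested semaphorins did not pass. The most abundant, Sema4b, a transmembrane class 4 member, had 2298, 1799 and 2064 normalized counts in control and 2365, 2261 and 2616 after knockdown, with overlapping groups. Its log2 ratio in the authors' deposited table was 0.23 (Benjamini-Hochberg adjusted p = 0.162). Sema6c, a relative of Sema6a, had 510.1, 524 and 534 in control and 531, 737 and 779 after knockdown. Knockdown library A was within the control range of Sema6c and the other two were above it. Its log2 ratio of 0.38 in the authors' deposited table had an adjusted p of 0.127, and it passed in 1 of 6 fits that left out a library, the one without Npm1 siRNA library A (log2 0.54, adjusted p = 0.0324). Sema5b stood at 697 ± 99.6 in control and 706 ± 79.3 after knockdown (SD, n = 3), a difference smaller than either SD. The 15 tested ratios ran from -0.45 to 1.01 in the authors' deposited table, with a median of 0.23 and 11 positive.

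The member with the lowest adjusted p was a plexin. Plxnb2, a plexin of the B class that binds class 4 semaphorins, had normalized counts of 3649.5, 3317 and 3396 in control libraries A, B and C (3454 ± 174, SD, n = 3). The knockdown libraries held 4541, 5006 and 5268 (4938 ± 368, SD, n = 3). The lowest knockdown library was above the highest control library by more than either SD. By the authors' deposited table Plxnb2 rose 1.43-fold (95% interval 1.29 to 1.58, log2 ratio 0.52), with an adjusted p of 2.27e-09 by Benjamini-Hochberg. It kept its call in all 6 fits that left out a library, with log2 ratios from 0.47 to 0.57. Plxnb2 (ENSMUSG00000036606.17) runs from 89155549 to 89180788 on chromosome 15.

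The other 5 tested plexins did not pass. Plxna1, a partner of neuropilins for secreted semaphorins, had 2602, 2079.8 and 2494 in control and 2523, 2674 and 2718 after knockdown, with overlapping groups. Its log2 ratio in the authors' deposited table was 0.14 (95% interval -0.03 to 0.31, adjusted p = 0.452). Plxnb1, the receptor of Sema4d, had 338, 336 and 292 in control and 247, 324 and 296 after knockdown, a log2 ratio of -0.16 in the authors' deposited table (adjusted p = 0.742). Summed per kb over all plexins, the level was 883 ± 57.2 in control and 1133 ± 77.3 after knockdown (SD, n = 3). That sum includes Plxnb2, which made up 64.1% of it over all 6 libraries, so it is not a separate result.

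Nrp2, a co-receptor of secreted semaphorins and of vascular growth factors, fell. Its normalized counts were 1780.5, 1628 and 1774 in control (1728 ± 86.1, SD, n = 3) and 1526, 1269.7 and 1258 after knockdown (1351 ± 152, SD, n = 3). Knockdown library A was the closest to control, and the groups did not overlap. The level was 78.2% of control by the authors' deposited table (log2 ratio -0.35 with a 95% interval -0.54 to -0.16), with an adjusted p of 0.0118 by Benjamini-Hochberg. Nrp2 kept its call in 3 of 6 fits that left out a library, and lost it without Npm1 siRNA library B (log2 -0.31, adjusted p = 0.0761), Npm1 siRNA library C (-0.31, adjusted p = 0.0836) or control library A (-0.33, adjusted p = 0.0513). The other neuropilin, Nrp1, had 24 reads over all 6 libraries and was not tested. Nrp2 (ENSMUSG00000025969.15) is on chromosome 1 from 62703285 to 62818695.

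**Figure D2:**
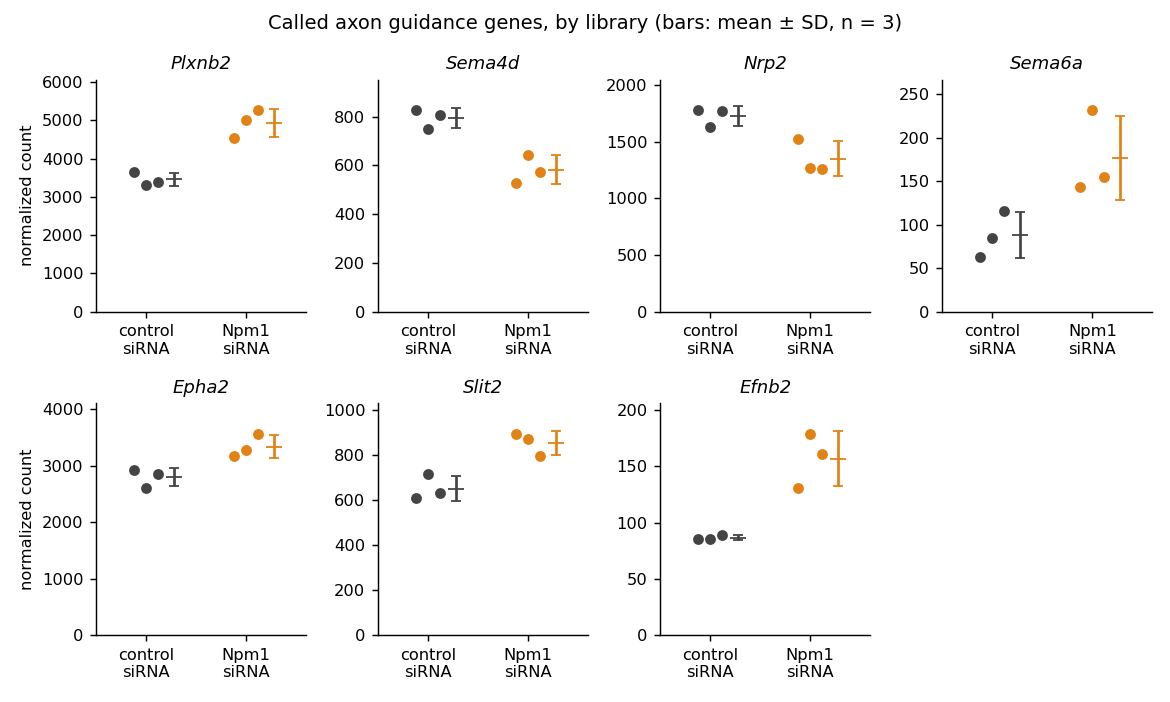
Normalized counts of the 7 called members in each library; dots are libraries A, B and C from left to right, and bars show mean ± SD (n = 3 per group). In every panel the 3 Npm1 siRNA libraries lie wholly above (Plxnb2, Sema6a, Epha2, Slit2, Efnb2) or below (Sema4d, Nrp2) the 3 control libraries. The 7 were picked by the ratio and p of these same libraries, so little overlap is built in. Members not called, such as Epha4 and Robo1, were also without overlap, and the share over all genes was not computed.

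Of 14 Eph receptors, 10 were tested and 1 rose. Epha2, a receptor of A-type ephrins, had 2927, 2615 and 2856 normalized counts in control (2799 ± 163, SD, n = 3). After Npm1 siRNA it had 3168, 3283 and 3569 (3340.2 ± 207, SD, n = 3), all above the control libraries. By the authors' deposited table this was a 1.19-fold rise (95% interval 1.08 to 1.32, log2 ratio 0.25), with an adjusted p of 0.0243 by Benjamini-Hochberg. The call was lost without Npm1 siRNA library C (log2 0.20, adjusted p = 0.165) or control library B (0.21, adjusted p = 0.156), and after correction for how ratios varied with length and GC of the transcript (0.18, adjusted p = 0.209). Epha2 (ENSMUSG00000006445.3) spans 141301240 to 141329384 on chromosome 4.

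Other abundant Eph receptors had positive ratios that did not pass. Epha4, which binds ephrins of both classes, had 4009, 4090.4 and 3474 in control and 4646, 4516 and 4178 after knockdown, with groups that did not overlap. Its log2 ratio in the authors' deposited table was 0.20 (unadjusted p = 0.00733, adjusted p = 0.109). Ephb4, a receptor of Efnb2, had 1699.7, 1428 and 1849.9 in control and 1794, 2015 and 2117 after knockdown, and the groups overlapped. Its log2 ratio in the authors' deposited table was 0.25 (adjusted p = 0.157). Ephb3, a receptor of B-type ephrins, had 679, 525 and 587 against 699.5, 733 and 775, without overlap, and a log2 ratio of 0.30 in the authors' deposited table (adjusted p = 0.182). Summed per kb over all Eph receptors, the level was 1879.6 ± 68.4 in control and 2214 ± 57.2 after knockdown (SD, n = 3). Most of that sum was Epha2 (38.3%), Epha4 (32.1%) and Ephb4 (20.5%) over all 6 libraries, so it is not a separate result. The 5 tested A-type receptors all had positive ratios by the authors' deposited table, as had 3 of the 5 tested B-type receptors. Over all tested genes 50.4% of ratios were positive. The A-type ratios of Epha1, Epha7 and Epha10 were within their error, with unadjusted deposited p of 0.958, 0.499 and 0.784.

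All 8 ephrins were tested and 1 rose. Efnb2, a transmembrane ephrin of the B class, had 85.7, 85.0 and 88.9 normalized counts in control (86.5 ± 2.08, SD, n = 3) and 131, 179 and 160.4 after Npm1 siRNA (157 ± 24.1, SD, n = 3). The groups did not overlap, and the control libraries were within a few counts of each other. By the authors' deposited table it rose 1.81-fold (95% interval 1.28 to 2.57, log2 ratio 0.86), with an adjusted p of 0.0266 by Benjamini-Hochberg. The call was kept only without Npm1 siRNA library A (log2 0.97, adjusted p = 0.0218). In the other 5 fits that left out a library the log2 ratio was 0.75 without Npm1 siRNA library B, 0.84 without library C, and 0.85, 0.84 and 0.88 without control libraries A, B and C. The adjusted p was 0.122 in the first of these and between 0.0531 and 0.0675 in the rest. Efnb2 (ENSMUSG00000001300.16) is on chromosome 8 from 8617434 to 8661242.

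Efnb3, the related ephrin-B3, had the lowest ratio of all tested members but did not pass. It had 43.3, 85.0 and 99.7 normalized counts in control and 34.8, 41.1 and 29.4 after knockdown. Control library A was close to the knockdown libraries, although the groups did not overlap. The level was 46.3% of control by the authors' deposited table (95% interval 26.3 to 81.5%, log2 -1.11, adjusted p = 0.112). The GPI-anchored Efna4 had 145, 153 and 168 in control and 184, 188 and 222 after knockdown (log2 0.35 in the authors' deposited table, adjusted p = 0.432). Efna3, the most abundant ephrin per kb, had the same mean of 364 in both groups.

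**Figure D3:**
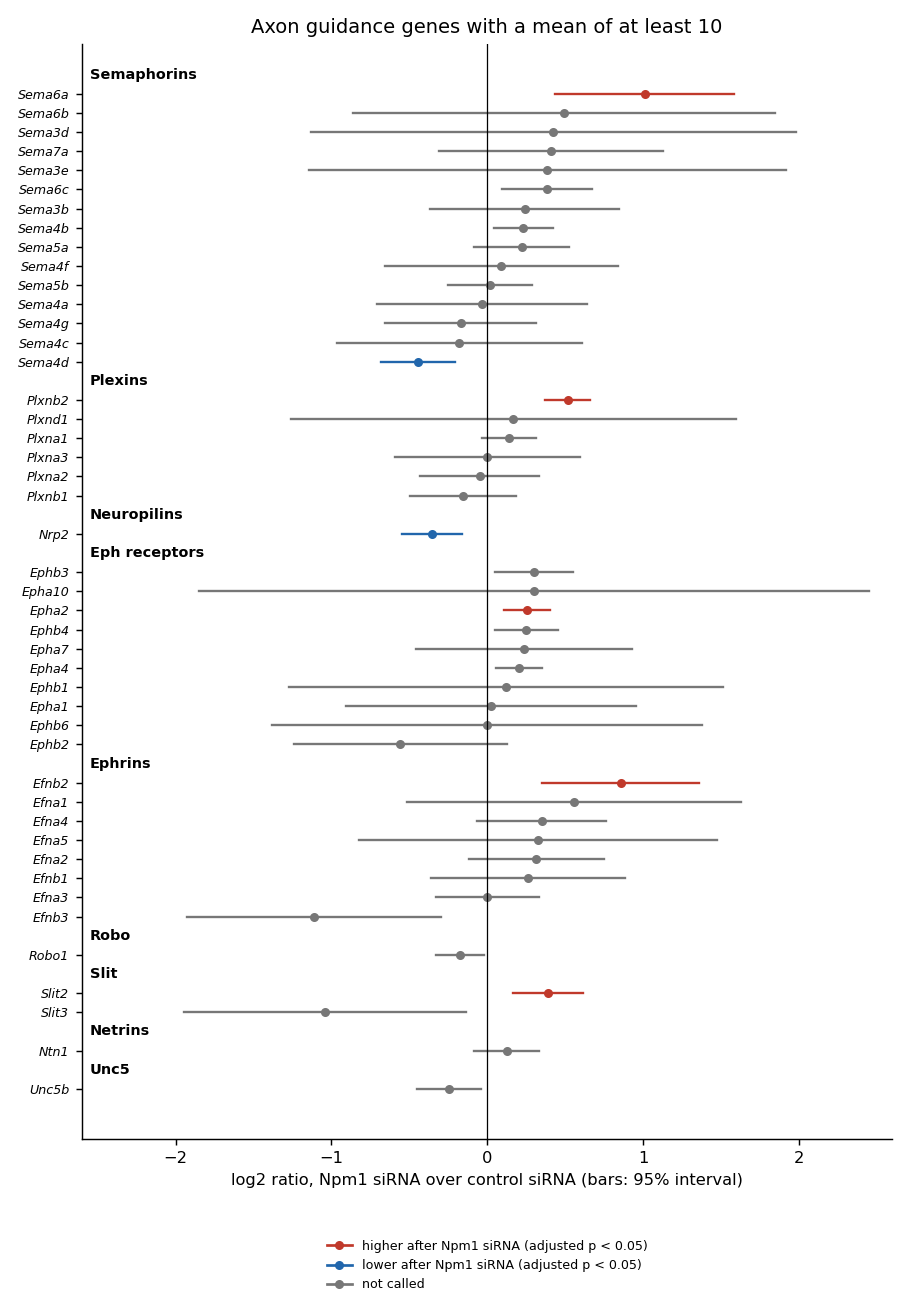
log2 ratio of Npm1 siRNA over control siRNA for the 45 tested members, by family, with 95% intervals from the implied standard errors. Red rose, blue fell and grey was not called; Sema6a has the highest ratio, and the intervals of the rarer members are the widest.

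Among the Slits, Slit2 rose. This secreted ligand of Robo1 had 610.2, 716 and 632 normalized counts in control (653 ± 56.1, SD, n = 3) and 896, 871 and 797 after Npm1 siRNA (855 ± 51.8, SD, n = 3). Every knockdown library was above every control library. By the authors' deposited table it rose 1.31-fold (95% interval 1.12 to 1.53, log2 ratio 0.39), with an adjusted p of 0.0247 by Benjamini-Hochberg. It kept the call in 2 of 6 fits that left out a library, and lost it without Npm1 siRNA library A (log2 0.35, adjusted p = 0.0972), Npm1 siRNA library B (0.38, adjusted p = 0.0696), control library A (0.34, adjusted p = 0.117) or control library C (0.37, adjusted p = 0.0804). Slit2 (ENSMUSG00000031558.15) runs from 47983138 to 48307733 on chromosome 5.

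Slit3, a second Slit ligand, had 75.1, 45.4 and 56.4 in control and 17.9, 43.0 and 25.2 after knockdown. Its log2 ratio of -1.04 in the authors' deposited table, opposite in sign to that of Slit2, did not pass (adjusted p = 0.214). The receptor Robo1 had 2278, 2503 and 2410.2 in control and 1999, 2199 and 2172 after knockdown, without overlap. Its log2 ratio in the authors' deposited table was -0.17 (95% interval -0.33 to -0.02, adjusted p = 0.212).

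In the netrin branch no gene was called. Ntn1, the abundant secreted netrin of this table, had 2037, 1573 and 1899 normalized counts in control and 1754, 2097 and 2162 after knockdown, and the groups overlapped (log2 0.13 in the authors' deposited table, adjusted p = 0.633). Unc5b, a netrin receptor linked to repulsion and cell survival, had 1046, 1001 and 1061 in control and 791, 916 and 917 after knockdown, without overlap. Its log2 ratio in the authors' deposited table was -0.24 (adjusted p = 0.185). After the same correction for length and GC, Unc5b passed as lower (log2 -0.38, adjusted p = 0.0145).

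Before adjustment, 16 of the 45 members (35.6%) had a deposited p under 0.05, 10 as higher and 6 as lower. Over all tested genes the share was 16.3%, with 8.47% as higher and 7.79% as lower. Of these 16, 8 were among the 26 tested ligands and 8 among the 19 tested receptors. The implied standard error of the log2 ratio ran from 0.07 to 1.10 over the tested members, so a change of the size measured in Epha2 was not detectable at the depth of the rarer ones.

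**Figure D4:**
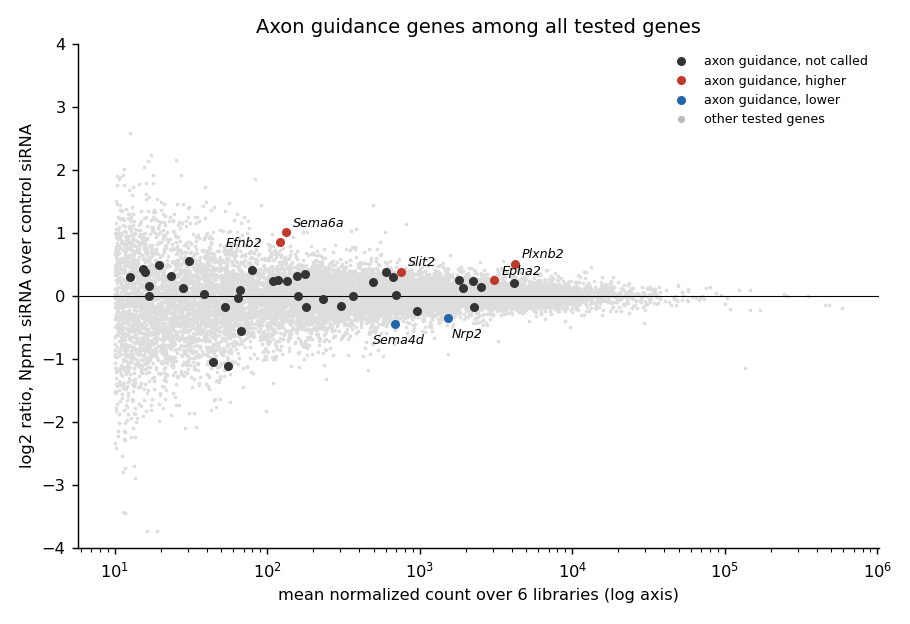
log2 ratio of Npm1 siRNA over control siRNA against mean normalized count (log axis) for all 14284 tested genes (light grey), with the 45 tested members on top. Called members are red (higher) or blue (lower), and dark points are members not called; called members span means from about those of Efnb2 to that of Plxnb2.

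The 21 members under the filter had between 1 and 58 reads over all 6 libraries and were not tested. Next in level to the abundant member of their families came Ntn5, a netrin with 44 reads, and Robo4, a Robo receptor with 11. Unc5d, an Unc5 receptor with 8 reads, likewise came next to Unc5b. Slit1, a Slit with 21 reads, came after both Slit2 and Slit3. Several of the 21 members rested on a single library. Unc5c, an Unc5 receptor, had 6 reads, all in Npm1 siRNA library B, as did all 4 reads of the Eph receptor Epha5. Robo3 had 4 reads, all in Npm1 siRNA library C. Sema6d, a relative of Sema6a, had 33 of its 58 reads in Npm1 siRNA library B and none in Npm1 siRNA library A or control library B. Among tested members, Ephb1 had 71 reads in Npm1 siRNA library A against 16 and 5 in libraries B and C, and Epha10 had 32 reads in control library B against 0 and 2 in the other control libraries. These uneven members had log2 ratios of 0.12 and 0.30 in the authors' deposited table with implied standard errors of 0.71 and 1.10.

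Other genes of the pathway were taken from lists drawn up from general knowledge. Of 31 tested guidance genes outside the families above, such as the netrin receptor neogenin, 1 rose, 1 fell and 29 did not pass. That was 6.45% called, against 4.30% of all tested genes. Before adjustment 9 of the 31 (29.0%) had a deposited p under 0.05, 5 as higher and 4 as lower, against 16.3% of all tested genes. Islr2, a membrane protein of developing neurons, had 272, 226 and 294 normalized counts in control and 672, 754 and 724 after knockdown (log2 1.44 in the authors' deposited table, adjusted p = 5.03e-20). Ptprs, a receptor phosphatase that binds proteoglycans, had 1301, 1230.07 and 1469.5 in control and 897, 961 and 1032 after knockdown (log2 -0.47 in the authors' deposited table, Benjamini-Hochberg adjusted p = 6.27e-04). The most abundant of the list, Rtn4 and Ptprf, had log2 ratios of 0.07 and 0.08 in the authors' deposited table. The list's median log2 ratio was 0.0057.

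None of 57 tested genes for signalling proteins below the receptors, such as kinases and actin regulators, was called on the authors' deposited p-values. An unadjusted p under 0.05 was found for 14 (24.6%, against 16.3% of all tested genes, 7 in each direction). Their median log2 ratio was -0.04. The actin regulator genes Cfl1 and Enah, the most abundant of the list, had log2 ratios of 0.016 and 0.04 in the authors' deposited table.

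Markers of cell types that use these genes were read beside them. Of 10 endothelial markers 4 were tested, and 2 of the 4 fell, Pecam1 and Tek (log2 -0.29 and -0.58 in the authors' deposited table), against 4.30% of all tested genes called. Kdr had a log2 ratio of -0.58 in the authors' deposited table (adjusted p = 0.109), and all 4 tested ratios were negative. The 8 endothelial markers with recovered reads summed to 4144 to 4394 normalized counts in the control libraries and 3286 to 3395 after knockdown. Most of that sum was Pecam1, with a mean of 3035 over all 6 libraries. Cdh5 and Emcn, which define endothelium, were listed at 0. Of 12 neuron markers 8 were tested, of which Nefl rose (log2 0.85 in the authors' deposited table) and 7 did not pass. That was 12.5% called, against the same 4.30% of all tested genes. Of the 8 tested neuron markers, 4 ratios were positive and 4 negative. An unadjusted p under 0.05 was found for 5 of the 8, against 16.3% of all tested genes. Of these 5, 3 were higher and 2 lower, Elavl4 among the latter (log2 -0.92 by the authors' deposited table, with an adjusted p of 0.188). Reads were recovered for 10 of the 12, which summed to 2835 to 3202 in control and 3237 to 3845 after knockdown. Dcx was at 0, and the most abundant, Stmn2, was above the mean of 5000 up to which reads were recovered. By deposited means and ratios the whole neuron list summed to 10309 in control and 11454 after knockdown. Of 11 neural progenitor markers 4 were tested and Sox1 rose (log2 1.26 in the authors' deposited table), while Fabp7 and Hes5 were at 0. Sox1 was 1 call among 4 tested, beside the 4.30% of all tested genes. Otx2 had a log2 ratio of -0.25 in the authors' deposited table (unadjusted p = 0.0397, adjusted p = 0.274). The 8 with recovered reads summed to 1593 to 1741 in control and 1542 to 1673 after knockdown. By deposited means and ratios the whole progenitor list summed to 2469 in control and 2549 after knockdown. None of the 5 tested fibroblast and 9 tested primitive endoderm markers was called on the authors' deposited p-values, and 0 had an unadjusted p under 0.05. The fibroblast list, with Dcn and Postn at 0, summed to 137 to 247 in control and 152 to 185 after knockdown. For 10 of the primitive endoderm markers the sums were 2619 to 2827 and 2421 to 2745. These leave out the most abundant, Lamc1 and Lama1, whose means were above 5000. By deposited means and ratios the whole endoderm list summed to 41869 in control and 42525 after knockdown. Whether these lists had any part in the values of Efnb2, Nrp2, Sema6a and the rest was not tested.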

How the data were processed

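Per the submitters' processing notes, FastQC, Trimmomatic 0.36, STAR and DESeq2 were used on GRCm38 (mm10). For the read counter, its strand setting and the gene annotation, the answer is: not given in the sources used here. The authors' deposited table has a mean column (a signal value: counts divided by a scaling factor per library and averaged over 6 libraries, per the file headers), a log2 ratio of the groups and an unadjusted p-value per gene.

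Benjamini-Hochberg adjustment was run on the p-values of the 14284 genes whose mean reached 10, and genes were called at an adjusted p under 0.05. Standard errors were implied from each log2 ratio and p, with 95% intervals from the normal distribution. Of the tested genes, 97.5% matched GENCODE M21 by symbol.

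Genes seen by 1 read in 1 library give 6 exact values of the mean, the steps. The sign of the deposited ratio of those genes puts 3 libraries on each side. For each gene with a mean under 5000, every set of 6 whole numbers near the expected counts that gives the mean to its last digit was listed (Python 3.11.15, sympy 1.14.0, numba 0.67.0). A set was accepted if a negative binomial model of it gave the deposited log2 ratio within 1e-06 at the dispersion that gives the deposited p, with no other set within 10 times that error. Under a mean of 12 the set had to be the only one. This gave reads for 66 of 66 members and for 85 of 87 other genes taken at even spacing, and was tested on simulated data. Scaling factors ran from 0.923 to 1.06. Total reads per library are unknown, and the mean normalized counts sum to 27631017.

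The members, lists and thresholds were chosen with earlier results of these data known. Members named were those called, those with an unadjusted p under 0.05 and, of those not called, the 2 per family with the highest mean. Efna2, Ephb1, Epha10 and the members resting on single libraries, as well as Epha8, were named after their values were seen, as were the markers of other cell types. Fits that leave out a library were also added after seeing the data: they hold the gene's dispersion, put its Wald p in place of the deposited one and readjust. Whether the samples came from separate cultures is not in the labels. The p-values therefore reflect the variation among these 6 samples alone, part or all of which may be technical.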

Additional observations from a re-analysis of the deposited data

How the results depend on the processing

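The 7 members called (5 higher, 2 lower) gave 1 (1 higher, 0 lower) with Benjamini-Yekutieli adjustment and 0 (0 higher, 0 lower) against a fold of 1.2. Over all genes the 614 calls (318 higher, 296 lower) became 230 (121 and 109) and 21 (9 and 12) under those settings, which are stricter by construction. Subtracting the trend on length and GC content left 7 members called, as 4 higher and 3 lower. Of the other pathway genes, 1 rose and 1 fell. With a mean of at least 50, 2 rose. Against a fold of 1.2, 1 was called and 0 fell. With the trend on length and GC content subtracted, 2 fell. The cause was not tested. Leaving out the filter on low means or recentring on the median kept all these counts within 1.5 times. No paired analysis was possible because the recovered libraries carry no replicate number, and leaving out a library could be computed for members alone, since it needs reads per library. Depth limits the 21 members under the filter.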
